A study of Mus musculus with 8 samples.

Results

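Common myeloid progenitors are bone marrow cells with the potential to form megakaryocytes, erythroid cells, granulocytes and monocytes, and surface markers divide them into subpopulations. Open chromatin was compared between 2 of these subpopulations, named C13 and C10 in the sample titles, with 2 libraries of each, which are 4 of the 8 libraries of the series. Members were the libraries with those titles. C13 is not among the cluster names in the design text of the series, which includes C10, and the groups here follow the titles and the sorting gates. All cells came from wild-type C57BL/6 mice and were KIT+, CD16/32- and CD34dim. C13 cells were in addition CD41- and CD9-. C10 cells were CD41+, CD9+ and CD48bright. Each preparation held 40000 to 50000 cells that were exposed to the transposase TDE1 in buffer with digitonin, which is the ATAC-seq assay: the enzyme cuts DNA where it is not packed in nucleosomes, so that reads pile up over open promoters and enhancers. Age, the number of mice and any pooling of animals are not stated in the labels. The design contrasts the CD41 and CD9 arms of the CD34dim cells, and CD48 was gated only in C10. CD41, CD9 and CD48 cannot be told apart in this contrast.

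CD41 is the alpha IIb integrin, encoded by Itga2b, which pairs with integrin beta 3 into the fibrinogen receptor of platelets and is carried early by cells that lean towards the megakaryocyte lineage. CD9 is a tetraspanin that is also abundant on megakaryocytes and platelets, and CD48 is a receptor of the SLAM family. Among the transcription factors of myeloid progenitors, GATA1 and GATA2 bind GATA strings such as AGATAA and act in the erythroid, megakaryocyte and mast cell lineages. IRF8 and the ETS factors PU.1 and SPIB act in monocytes, dendritic cells and B cells. A gene that a cell uses, or stands ready to use, usually has an open promoter and open distal elements, so open sites can be read around genes of lineages that the cell has not yet entered.

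Each library came with a list of 100000 peaks from the caller F-Seq, ordered by peak height, and a second list of 150-base peaks from the caller HOMER. The F-Seq lists covered 97.6 and 101 Mb in C13 and 94.2 and 99.3 Mb in C10, with a median peak width of 770 and 800 bases in C13 and of 762 and 793 bases in C10. HOMER listed 252844 and 249132 peaks in C13 and 235812 and 260118 in C10. Without read counts in these lists the sequencing depth is unknown. F-Seq peaks overlapped a HOMER peak for 94.4% and 93.6% in C13, against 90.0% and 94.1% in C10. C10 replicate 1 was the lowest of the 4 libraries by that share, by its covered length and by its HOMER peaks, and it alone held 8506 merged regions, against 3819 to 5434 for each of the others. The Jaccard index, bases under peaks in both libraries over bases under peaks in either, was 0.796 between the C13 libraries and 0.695 between the C10 libraries. Across populations it lay between 0.560 and 0.618, below both. In the HOMER lists it was 0.549 within C13, 0.453 within C10 and 0.370 to 0.427 across. The libraries thus resembled their own population more in both callers, and C10 less closely than C13.

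Promoters give the most direct picture, because they belong to a known gene. A promoter was the stretch from 250 bases before to 50 bases after a gene start in RefSeq on GRCm38.p6, which is the assembly behind the authors' build mm10, and it was called open in 1 population when a peak overlapped it in both libraries of that population and in neither of the other. Of 21262 promoters, 267 (1.26%) were open in C13 only and 205 (0.964%) in C10 only, while 12045 were open in both. Where 1 library of C10 was left out, the C13-only count was 411 without C10 replicate 1 and 510 without C10 replicate 2, and the C10-only count was 374 without C10 replicate 2. No test was made on these counts. Because F-Seq lists end at a fixed number of peaks, a promoter can be absent and still hold a weak peak: HOMER placed a peak in at least 1 C10 library at 102 of the 267 C13-only promoters, and in at least 1 C13 library at 84 of the 205 C10-only promoters. A peak of HOMER in both libraries of the one population and in none of the other was present at 52 of the C13-only and 63 of the C10-only promoters.

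Of all 17491 genes with a promoter in the table, 193 had one open in C10 only and 251 had one open in C13 only. The C10-only promoters of listed genes fell on platelet, red cell, mast cell and stem cell genes. From the erythroid list they were Epb42 (protein 4.2 of the red cell membrane), Epor (the erythropoietin receptor), Rhag (the Rh-associated glycoprotein), Trim10 and Tspo2, which is 5 of 20 genes with a promoter in the table, and none of these 20 was open in C13 only. From the megakaryocyte list they were Gp1ba and Gp5 (subunits of the receptor for von Willebrand factor), Gp6 (the collagen receptor of platelets) and Treml1 (a receptor of platelet alpha granules), 4 of 21 genes, again with none in the other direction. The promoters of Cpa3 and Il1rl1 of the mast cell list, Mllt3 and Prdm16 of the stem cell list, Tek of the endothelial list, Mpo of the granulocyte list and the transcription factor genes Gata1, Ldb1 and Mef2c completed the set. In 5 of these genes, Epor, Il1rl1, Prdm16, Gp5 and Mef2c, both C13 libraries had a peak elsewhere in the merged region that reaches the promoter, so that the region itself was listed in both populations. C13-only promoters fell on Ccr9, Cd8a, Dntt, Lck and Vpreb3, 5 of 21 genes of the lymphoid list, with none open in C10 only. The others were Clec9a and Spib of the dendritic list, Axl and C1qb of the macrophage list, Cybb (the catalytic subunit of the phagocyte oxidase) and Cebpb, whose region was listed in both C10 libraries too. None of the promoters of the 7 genes that encode the sorted markers was open in 1 population only, and none of 15 housekeeping genes. Such promoters are so few over all genes that their absence from lists this short is uninformative.

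HOMER placed peaks in all 4 libraries at the promoters of Lck, Cpa3, Prdm16 and Gp5, and in none at those of Spib and Mef2c. It drew the same line as F-Seq where both libraries of the one population and neither of the other had a peak. Over all promoters that held for 52 of 267 C13-only and 63 of 205 C10-only ones. Among these promoters of listed genes it held for 4 of 11 C13-only and 12 of 18 C10-only ones. All 4 of the C13-only promoters and 6 of the C10-only ones, those of platelet, red cell membrane and angiopoietin receptor genes, picked after their values were seen, are printed below from RefSeq on GRCm38.p6 in the direction of transcription, as examples of an on-off difference in both callers. Capitals mark AGATAA or its reverse complement TTATCT. Other strings with GATA are not marked, such as TGATAA or its reverse complement TTATCA in the Gp1ba and Rhag promoters. The C13-only promoters are Clec9a (chr6:129408612-129408911, plus strand), an uptake receptor of cross-presenting dendritic cells, Ccr9 (chr9:123766961-123767260, plus strand), a chemokine receptor of early lymphoid and plasmacytoid dendritic cells, Vpreb3 (chr10:75948050-75948349, plus strand), a gene of B cell precursors, and Dntt (chr19:41029025-41029324, plus strand), the terminal transferase of early lymphocytes. The C10-only promoters are Epb42 (chr2:121036828-121037127, minus strand), Gp6 (chr7:4397695-4397994, minus strand), Tek (chr4:94739039-94739338, plus strand), which encodes the angiopoietin receptor of endothelium and stem cells, Gp1ba (chr11:70638872-70639171, plus strand), Rhag (chr17:40810899-40811198, plus strand) and Treml1 (chr17:48359666-48359965, plus strand).
Clec9a promoter: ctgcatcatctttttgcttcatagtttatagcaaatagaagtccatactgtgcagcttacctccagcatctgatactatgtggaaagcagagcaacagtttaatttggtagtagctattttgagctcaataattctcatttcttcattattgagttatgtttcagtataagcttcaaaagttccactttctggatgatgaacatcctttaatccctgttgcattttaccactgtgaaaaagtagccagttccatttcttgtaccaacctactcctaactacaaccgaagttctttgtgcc
Ccr9 promoter: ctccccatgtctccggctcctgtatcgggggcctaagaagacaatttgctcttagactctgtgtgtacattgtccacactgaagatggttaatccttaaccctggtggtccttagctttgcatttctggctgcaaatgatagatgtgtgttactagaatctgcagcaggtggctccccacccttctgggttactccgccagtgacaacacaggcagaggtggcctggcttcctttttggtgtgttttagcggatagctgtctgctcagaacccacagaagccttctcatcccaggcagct
Vpreb3 promoter: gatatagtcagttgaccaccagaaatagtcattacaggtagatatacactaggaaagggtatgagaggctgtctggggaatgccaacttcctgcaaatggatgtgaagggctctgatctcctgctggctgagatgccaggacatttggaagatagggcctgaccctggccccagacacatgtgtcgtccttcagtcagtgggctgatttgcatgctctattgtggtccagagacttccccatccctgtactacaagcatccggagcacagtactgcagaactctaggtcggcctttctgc
Dntt promoter: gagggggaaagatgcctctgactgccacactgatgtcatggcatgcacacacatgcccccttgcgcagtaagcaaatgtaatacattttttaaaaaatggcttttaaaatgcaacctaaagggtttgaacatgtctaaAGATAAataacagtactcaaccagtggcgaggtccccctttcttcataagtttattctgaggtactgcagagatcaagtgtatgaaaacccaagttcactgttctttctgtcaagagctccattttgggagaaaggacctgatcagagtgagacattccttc
Epb42 promoter: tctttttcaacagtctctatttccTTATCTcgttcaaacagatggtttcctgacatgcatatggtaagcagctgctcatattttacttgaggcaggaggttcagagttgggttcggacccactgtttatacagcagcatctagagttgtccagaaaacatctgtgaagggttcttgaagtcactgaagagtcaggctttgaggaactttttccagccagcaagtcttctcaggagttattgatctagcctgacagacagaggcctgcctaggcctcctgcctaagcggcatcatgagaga
Gp6 promoter: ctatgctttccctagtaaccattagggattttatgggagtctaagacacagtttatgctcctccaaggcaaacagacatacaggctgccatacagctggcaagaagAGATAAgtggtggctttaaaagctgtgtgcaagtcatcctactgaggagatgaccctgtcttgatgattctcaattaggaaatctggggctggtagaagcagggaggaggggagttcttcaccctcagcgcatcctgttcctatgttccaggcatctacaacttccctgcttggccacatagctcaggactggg
Tek promoter: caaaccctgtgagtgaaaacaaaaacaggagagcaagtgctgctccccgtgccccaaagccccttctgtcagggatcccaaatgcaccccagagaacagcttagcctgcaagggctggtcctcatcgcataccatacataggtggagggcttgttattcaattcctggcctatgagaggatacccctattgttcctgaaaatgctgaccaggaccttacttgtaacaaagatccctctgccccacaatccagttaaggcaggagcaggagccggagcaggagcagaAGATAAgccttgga
Gp1ba promoter: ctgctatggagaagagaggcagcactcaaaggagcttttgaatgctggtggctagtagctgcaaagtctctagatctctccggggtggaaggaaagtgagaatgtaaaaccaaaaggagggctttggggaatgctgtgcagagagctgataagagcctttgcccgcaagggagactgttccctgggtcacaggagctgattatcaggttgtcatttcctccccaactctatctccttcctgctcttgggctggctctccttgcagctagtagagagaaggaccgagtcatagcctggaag
Rhag promoter: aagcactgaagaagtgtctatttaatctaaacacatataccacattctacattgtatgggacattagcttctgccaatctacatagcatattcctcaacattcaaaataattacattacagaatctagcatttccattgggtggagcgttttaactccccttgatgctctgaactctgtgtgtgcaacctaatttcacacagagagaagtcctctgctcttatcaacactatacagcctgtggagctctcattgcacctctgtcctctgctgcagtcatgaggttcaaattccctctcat
Treml1 promoter: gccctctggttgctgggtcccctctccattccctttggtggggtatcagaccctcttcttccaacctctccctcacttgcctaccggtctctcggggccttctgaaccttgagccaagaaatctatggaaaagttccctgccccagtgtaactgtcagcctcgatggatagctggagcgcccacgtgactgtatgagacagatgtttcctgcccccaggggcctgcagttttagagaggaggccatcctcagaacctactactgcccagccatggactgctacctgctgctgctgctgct
The capital letters occur in 1 of the 4 C13-only and in 5 of the 12 C10-only promoters that both callers separated, and in 3 of the 6 C10-only ones printed. Peaks over the printed C13-only promoters ranked 57800 and 49188 (Clec9a), 40629 and 36900 (Ccr9), 79838 and 82192 (Vpreb3) and 78897 and 50746 (Dntt) in the C13 lists. Those over the C10-only promoters ranked 72789 and 57100 (Epb42), 89728 and 91968 (Gp6), 16830 and 24137 (Tek), 16280 and 12852 (Gp1ba), 61180 and 32697 (Rhag) and 35714 and 36429 (Treml1) in the C10 lists. The peaks of Gp1ba and Tek stood highest, and those of Gp6 lay near the end of the lists.

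AGATAA, searched on both strands, was present in 18 of the 267 C13-only promoters (6.74%) and in 47 of the 205 C10-only promoters (22.9%), against 5.79% of promoters open in both, 15.6% of those open in neither and 9.65% of all 21262. The other strings were counted the same way. TGTGGT, read by RUNX factors, was in 10.1% of C13-only and 18.05% of C10-only promoters, against 19.1% of those open in neither and 14.97% of all. TTGCNNAA, a C/EBP string, was in 8.99% and 13.2%, against 13.7% of those open in neither and 10.2% of all. The pair of IRF half-sites, GAAA, any 2 bases and GAAA, was in 6.37% of C13-only and 4.39% of C10-only promoters, against 3.59% of those open in neither and 3.35% of all. GAGGAAGT, an ETS string of the PU.1 kind, was in 2.25% and 1.46%, against 3.02% and 3.13%. The E-box CAGNTG was in 57.7% and 55.1%, against 56.4% of those open in neither and 48.6% of all. None of these strings contains another, but matches can overlap. The widest gap between the C13-only and C10-only sets was that of AGATAA, and the C10-only shares of the RUNX, C/EBP and E-box strings lay below those of promoters open in neither. These are counts of letters in a window and were not tested.

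Distal sites were included by measuring, for each protein-coding gene, the bases under F-Seq peaks from 10 kb before to 10 kb after the gene body, scaled to the same total covered length in each library; loci of neighbouring genes can share peaks. Of 18027 loci tested on the log2(bases + 200) scale with limma, 799 were higher in C13 (4.43%) and 840 were lower in C13 (4.66%) at a Benjamini-Hochberg adjusted p under 0.05. Over all loci, both C13 libraries lay above both C10 libraries in 33.5% and below both in 27.5%, and the median difference was 0.03. Of the called loci, 153 of those higher in C13 had no F-Seq peak in either C10 library, and 180 of those lower had none in either C13 library. Such loci have no spread in the empty group, which makes their p-values small, and no fold change is given for them. They also passed the peak filter only through the population where they are high. Among the 17678 loci with a peak in both populations, fitted anew in a setting chosen after the data were seen, 526 were higher (2.98%) and 574 lower (3.25%) in C13. With 2 libraries a group the calls rest on all 4 libraries: leaving out any 1 of them left 0 calls in limma at the adjusted threshold, with 2847 to 6246 loci at an unadjusted p under 0.05. Since nothing in the labels ties the replicates to separate mice, p-values measure only how far replicate libraries lie apart, and that distance may be technical. A lower share of cells with an open site and less opening in each cell cannot be told apart in these sorted bulk samples.

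The HOMER lists, measured the same way, had the same sign as the F-Seq lists for 714 of the 799 loci higher in C13 (89.4%) and 740 of the 840 lower in C13 (88.1%), against 65.8% over all loci. The called loci were picked for their F-Seq differences, with a median absolute log2 difference of 0.90 (higher) and 0.94 (lower), against 0.22 over all loci. They include the 153 and 180 loci without an F-Seq peak in 1 population. Both callers read the same libraries, so the shared sign is not independent support. In the HOMER lists themselves, which hold much narrower peaks, 50 loci were higher (0.269%) and 34 lower (0.183%), and 26 and 29 of them were among the F-Seq calls of the same direction.

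**Figure D1:**
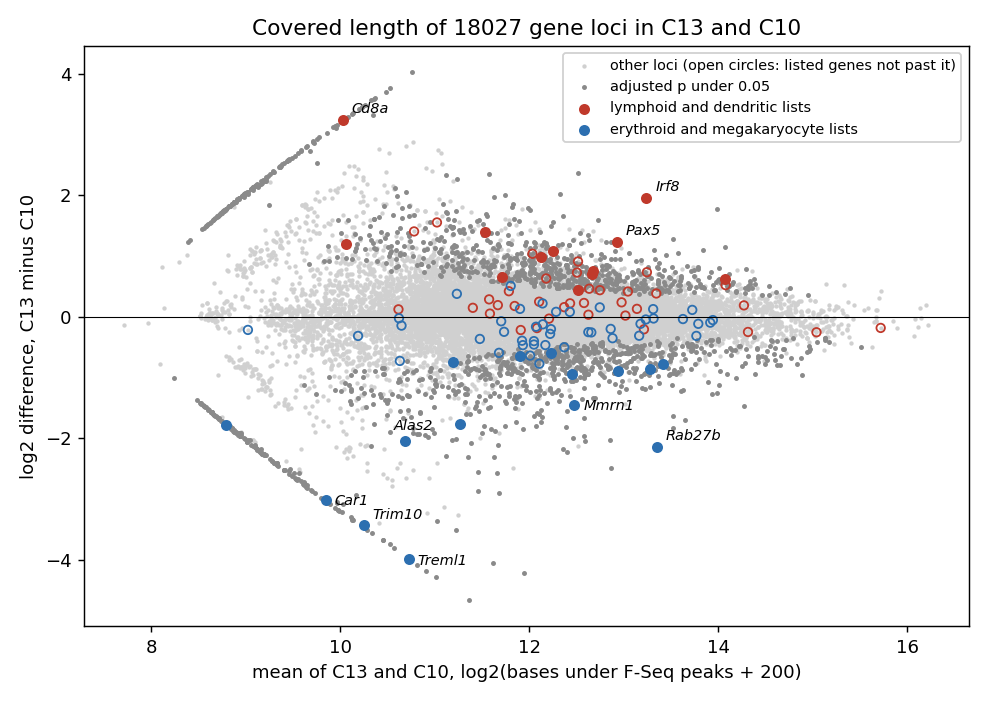
Difference of covered length between C13 and C10 (log2 scale, C13 minus C10) against the mean of both populations (log2 of bases plus 200) for 18027 loci, with grey points for loci past the threshold and filled circles for called genes of the lymphoid and dendritic lists (red) and of the erythroid and megakaryocyte lists (blue). All called red genes lie above 0 and all called blue genes below it, and the diagonal arms at the left are loci without a peak in 1 population.

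The called loci with the smallest p-values were mostly of that on-off kind. Among those higher in C13, Chst3, a sulfotransferase gene for chondroitin, had peaks in all libraries, with 7.74 and 8.28 kb covered in C13, against 1.80 and 1.83 kb in C10 (log2 difference 2.02 ± 0.10 SE, limma adjusted p = 0.0153). Pla2g4f, a phospholipase gene, had 3.07 and 3.05 kb in C13 and no F-Seq peak in C10. Klk1b1, Klk1b9, Duxbl2, Duxbl3, Ifna6, Ifna14, Serpinc1 and Nipal4 likewise had none in C10. The kallikrein, Duxbl and interferon alpha genes lie in clusters of near-identical copies, where reads can be assigned to the wrong copy, so they are uncertain. Among those lower in C13, Ndst3, a heparan sulfate sulfotransferase gene, had 2.03 and 2.06 kb in C13, against 13.2 and 11.8 kb in C10 (log2 difference -2.50 ± 0.10 SE, adjusted p = 0.0153), and it was also called in the HOMER lists (-2.36, adjusted p = 0.0317). Necab1, a calcium-binding protein gene, had 0.473 and 0.480 kb in C13, against 4.58 and 4.92 kb in C10. Colec11, a collectin gene, had 0.720 and 0.727 kb in C13, against 5.15 and 5.50 kb in C10. Adamts5, Mlip, Olfr769, Efhc2, Gpc4, Cd55b and Treml1 had no F-Seq peak in C13, and covered 1.84 kb (Cd55b) to 4.87 kb (Adamts5) on average in C10.

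None of the 7 passed the test on covered length, whether higher or lower in C13. Itga2b (chr11:102453297-102469883), which encodes CD41, had 3.11 and 2.98 kb in C13 and 3.32 and 3.11 kb in C10 (log2 difference -0.07 ± 0.11 SE, adjusted p = 0.69), and Cd9 had 9.81 and 9.08 kb in C13 and 10.2 and 10.1 kb in C10 (-0.10 ± 0.08, adjusted p = 0.426). Kit had 8.62 and 11.2 kb in C13 and 6.54 and 11.2 kb in C10, and its libraries overlapped. Cd34 had a difference of -0.17, Cd48 of -0.18, Fcgr2b of -0.08 and Fcgr3 of -0.57 (adjusted p = 0.068). Other settings brought 3 of them past the threshold. Among the strongest 50000 peaks alone Itga2b was lower in C13 (-1.19, adjusted p = 0.0245) and Kit higher (1.60, adjusted p = 0.00723). Fcgr3 was lower with 2 kb flanks (-1.23, adjusted p = 0.0183) and by number of peaks (-0.42, adjusted p = 3.93e-05).

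Peak height was compared as the rank of the best peak over each of the 67164 merged regions that were listed in all 4 libraries, with limma on minus log2 of the rank, so that a negative difference means a lower place in the C13 lists. On this measure 13616 regions (20.3%) ranked higher and 12201 (18.2%) ranked lower in C13, and the number ranked lower was 6638 without C13 replicate 2. The region over the start of Itga2b (chr11:102469318-102470756) ranked 54115 and 58401 in C13, against 15590 and 14854 in C10, a difference of -1.89 ± 0.24 SE (adjusted p = 2.82e-06). Its other regions, 2.60 and 13.9 kb into the gene, ranked 21571 and 26042 in C13, against 29822 and 23306 in C10, and 62780 and 55712 in C13, against 58017 and 72628 in C10, and did not pass. The start of the CD41 gene thus had a peak in all 4 libraries, and it stood lower in both C13 lists than in both C10 lists. The promoter of Itga2b (chr11:102469834-102470133, minus strand), inside that region and under a peak in all 4 libraries, holds no AGATAA.
Itga2b promoter: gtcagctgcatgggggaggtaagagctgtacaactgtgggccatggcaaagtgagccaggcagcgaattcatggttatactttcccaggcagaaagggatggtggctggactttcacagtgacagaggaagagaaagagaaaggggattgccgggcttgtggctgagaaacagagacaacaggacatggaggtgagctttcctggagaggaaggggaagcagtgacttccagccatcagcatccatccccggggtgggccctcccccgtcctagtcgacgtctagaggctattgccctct

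Over the loci of the 7 sorted markers, 8 of 32 shared regions ranked higher and 7 lower in C13. Both shares lay only a little above the 20.3% and 18.2% of all shared regions. Cd9 had regions that moved in opposite directions. Its region 33.4 kb into the locus ranked 13826 and 7697 in C13, against 61263 and 46810 in C10 (2.38 ± 0.28 SE, limma adjusted p = 1.41e-06). A wider region 13.2 kb from the start ranked 33891 and 33180 in C13, against 15142 and 17681 in C10 (-1.04 ± 0.25, adjusted p = 0.00219), and a region at 20.9 kb was listed in C10 only, at ranks 31870 and 26017. The start itself ranked 64035 and 62924 in C13, against 39924 and 54465 in C10, and did not pass (adjusted p = 0.12). Kit, the stem cell factor receptor for which both populations were positive, had 3 of its 5 shared regions ranked higher in C13 and none lower, led by one 17.2 kb into the gene at ranks 30204 and 26179 in C13, against 87687 and 61047 in C10. Cd34 had 3 of 7 ranked lower in C13, among them one at -2.86 kb from the start at ranks 26585 and 30373 in C13, against 10847 and 7873 in C10. Cd48, bright on C10 cells, had 2 of 5 shared regions ranked higher in C13, and its start region, at ranks 23702 and 21885 in C13 and 34396 and 24077 in C10, did not pass (0.34 ± 0.26, adjusted p = 0.317).

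**Figure D2:**
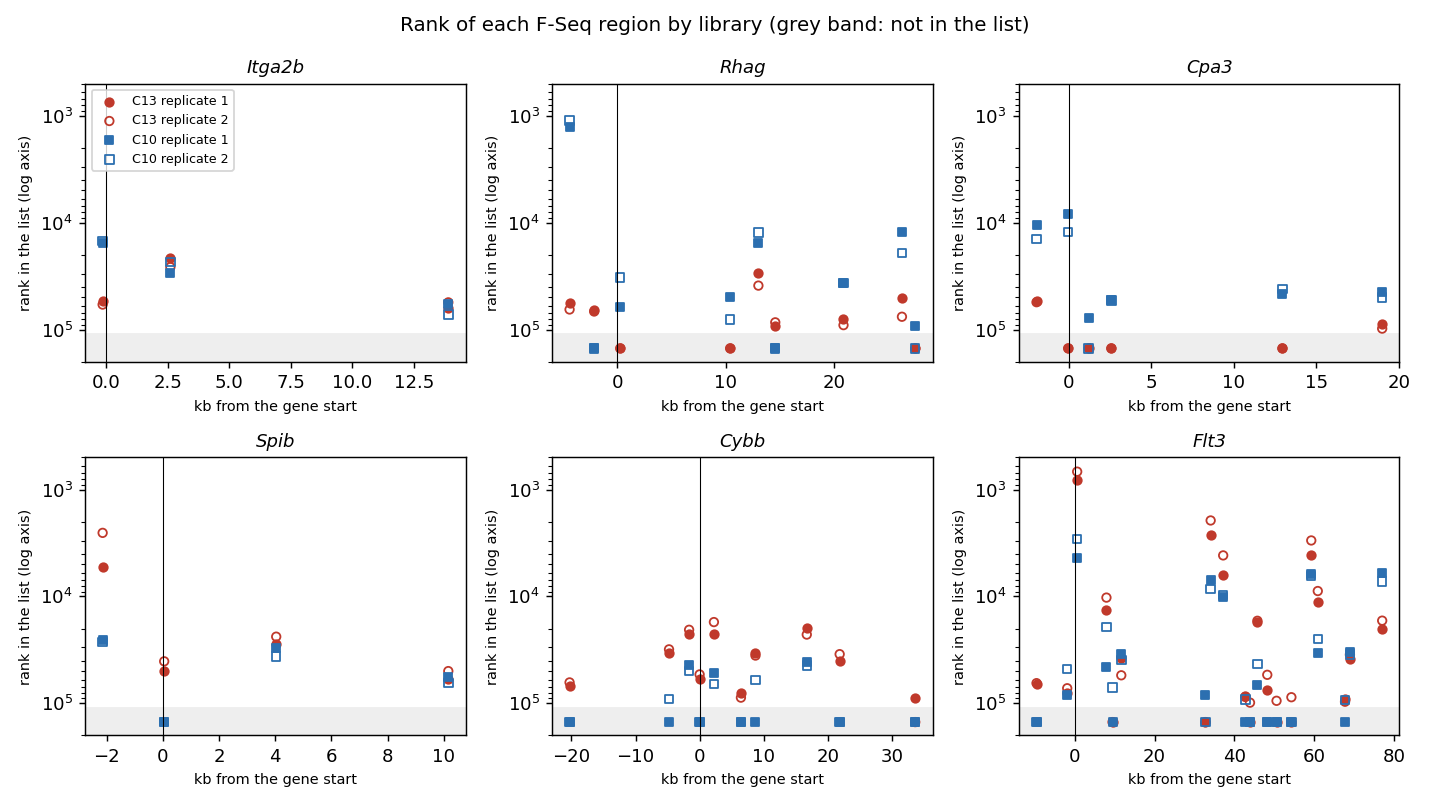
Rank of the best F-Seq peak over each merged region of 6 loci (log axis, strongest at the top) against the distance of the region from the gene start in kb, for both C13 libraries (red circles) and both C10 libraries (blue squares), with regions missing from a list in the grey band. The loci were chosen after their values were seen. The Itga2b start, all 4 shared regions of Rhag and both shared regions of Cpa3 ranked lower in C13, while Rhag also has 2 C13-only regions. Of the shared regions, 1 of 3 in Spib and all 3 in Cybb ranked higher in C13, as did the Flt3 start.

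All erythroid loci that passed were lower in C13. Of 30 tested genes of the list, 8 were called lower (26.7%) and none higher, against 4.66% and 4.43% of all loci, and 24 of 30 had a negative difference. Leaving out loci without a peak in 1 of the populations, which here removes Car1 and Trim10, 6 of 28 were lower (21.4%), against 3.25% of all such loci. The list's median was -0.30 in the F-Seq lists and -0.24 in the HOMER lists, against 0.03 and -0.01 over all loci. Alas2, the enzyme that opens haem synthesis in red cells, had 0.519 and 0.375 kb in C13, against 2.38 and 2.51 kb in C10 (-2.04 ± 0.18 SE, adjusted p = 0.0192). Car2, a carbonic anhydrase, had 7.67 and 8.02 kb in C13, against 13.4 and 13.8 kb in C10 (-0.78 ± 0.07, adjusted p = 0.0192). Car1, its neighbour, had no F-Seq or HOMER peak in C13 and 1.71 and 1.16 kb under F-Seq peaks in C10, and was called in both callers. The groups did not overlap in any of these genes, but a call with 2 libraries a group favours such separation. Over all loci, both C13 libraries lay below both C10 libraries in 27.5%.

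Rhag (chr17:40811099-40844094) combined several kinds of difference. It covered 3.63 and 3.61 kb in C13, against 7.70 and 6.66 kb in C10 (-0.95 ± 0.11 SE, limma adjusted p = 0.0227). HOMER covered 1.65 and 1.34 kb of it in C13 and 1.88 and 1.298 kb in C10, where the populations overlap (-0.06, adjusted p = 0.915). All 4 of its shared regions ranked lower in C13, and the region at -4.43 kb from its start (chr17:40805897-40807537) ranked 57032 and 64937 in C13, against 1279 and 1101 in C10 (-5.68 ± 0.28, adjusted p = 5.18e-11). That placed it among the top regions of the C10 lists and in the weaker part of the C13 lists. Rhag also held 2 C13-only regions, at ranks from 65723 to 93164, and its number of peaks differed by 0.01 on the log2 scale. Tspo2, Trim10, Gypc (glycophorin C) and Epb42 were the remaining calls. Trim10 was absent from the F-Seq lists of C13, but HOMER listed 1.02 and 0.447 kb there, against 0.324 and 0.780 kb in C10, so that the callers differed in sign. The start region of Epor, whose locus did not pass (-0.47, adjusted p = 0.058), ranked 29873 and 31011 in C13, against 11653 and 7922 in C10 (-1.66 ± 0.27, adjusted p = 4.96e-05). Over the whole list 8 of 101 shared regions ranked higher (7.92%, against 20.3% of all) and 31 lower (30.7%, against 18.2%) in C13. Of its 185 regions 9 were C13-only (4.86%, against 10.2% of all) and 27 C10-only (14.6%, against 9.13%).

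In the megakaryocyte list 7 of 28 tested loci were lower in C13 (25%, against 4.66% of all) and none higher, and 25 of 28 differences were negative. With Treml1 and Gp6 left out, which had no F-Seq peak in C13, 5 of 26 were lower (19.2%, against 3.25% of all such loci). Its median was -0.31 in the F-Seq lists and -0.26 in the HOMER lists. Treml1 had no peak of either caller in C13, and 2.83 and 3.14 kb under F-Seq peaks in C10. HOMER covered 1.05 and 1.00 kb of it in C10, and the HOMER difference passed as well (adjusted p = 0.0317). Rab27b, a small GTPase gene of platelet granule secretion, had 3.26 and 4.03 kb in C13, against 18.4 and 15.3 kb in C10 (-2.15 ± 0.15 SE, adjusted p = 0.0164), and 11 of its 17 regions were C10-only. Mmrn1, which encodes a protein of platelet alpha granules, had 2.73 and 2.97 kb in C13, against 8.91 and 7.37 kb in C10 (-1.45 ± 0.13, adjusted p = 0.0192).

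Gp9 encodes a further subunit of the receptor for von Willebrand factor. It had 3.59 and 3.64 kb in C13, against 5.78 and 5.37 kb in C10 (-0.60 ± 0.09 SE, limma adjusted p = 0.0367). The Gp9 call was lost in 5 of 11 other settings, and its sign turned in 1 more, the HOMER lists (0.07). Gp6 had no F-Seq peak in C13 and 0.434 and 0.542 kb in C10, also with the other sign in HOMER (0.31). Cd226, an adhesion receptor of platelets and lymphocytes, was also called, at 5.66 and 4.88 kb in C13, against 11.1 and 8.90 kb in C10. Pf4, which encodes platelet factor 4, did not pass (-0.40, adjusted p = 0.078). In the list as a whole 17 of 110 shared regions ranked higher (15.5%, against 20.3% of all) and 33 lower (30.0%, against 18.2%) in C13. Of its 196 regions 7 were C13-only (3.57%, against 10.2% of all) and 31 C10-only (15.8%, against 9.13%).

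Stem cell and mast cell loci were also lower in C13 where they were called. In the stem and multipotent list 5 of 20 loci were lower (25%, against 4.66% of all) and none higher, and the median was -0.12 (F-Seq) and -0.07 (HOMER). Mllt3, a gene of self-renewal in stem cells, had 17.95 and 14.5 kb in C13, against 27.1 and 27.0 kb in C10 (-0.74 ± 0.12 SE, adjusted p = 0.0397). Prdm16 (-0.53, with 0.02 in HOMER) and Slamf1 (-0.64), which encodes the SLAM receptor CD150, were among the others, and the Slamf1 call was lost in 6 of 11 other settings. Of the mast cell, basophil and eosinophil list 4 of 18 loci were lower (22.2%) and none higher, with medians of -0.28 and -0.29. Cpa3, the carboxypeptidase of mast cell granules, had 1.58 and 1.46 kb in C13, against 5.55 and 5.47 kb in C10 (-1.73 ± 0.11, adjusted p = 0.0156). The peak over its promoter was listed in C10 only, at ranks 8381 and 12259, although HOMER placed peaks there in all 4 libraries and HOMER covered 1.45 and 1.47 kb of the locus in C13 and 1.46 and 1.46 kb in C10. Ms4a2, the beta chain of the IgE receptor, had 0.714 and 1.36 kb in C13, against 4.74 and 3.95 kb in C10 (-1.92 ± 0.30, adjusted p = 0.0375). Il5ra, the interleukin 5 receptor, had 5.07 and 5.05 kb in C13, against 10.8 and 8.79 kb in C10. Siglecf, an inhibitory lectin of eosinophils, had 4.79 and 4.89 kb in C13, against 7.54 and 6.84 kb in C10, a call that was lost in 6 of 11 other settings. Each of these 4 genes was lower in both C13 libraries than in both C10 libraries, as were 27.5% of all loci. They were picked for passing the test, which favours such separation.

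**Figure D3:**
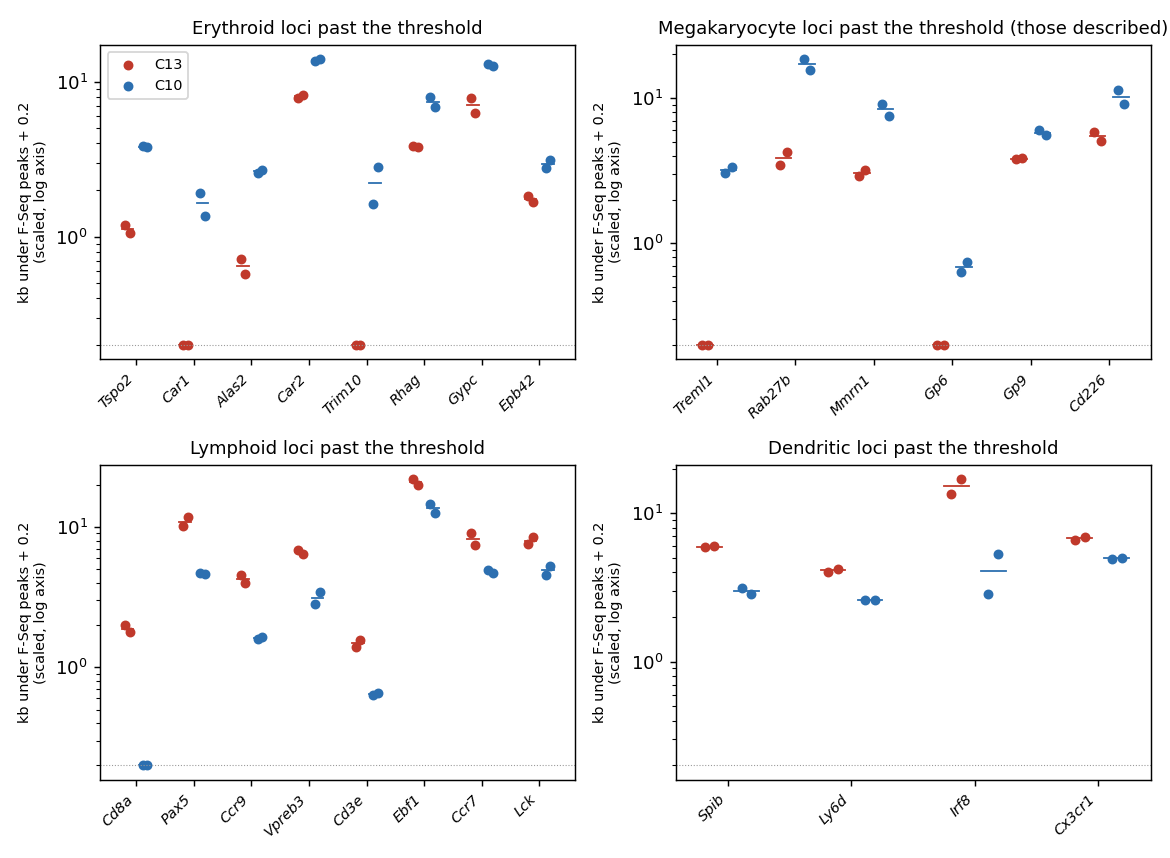
Scaled kb under F-Seq peaks plus 0.2 (log axis) for called loci of the erythroid (8), megakaryocyte (6 of 7), lymphoid (8) and dendritic (4) lists, with 1 point per library, C13 in red to the left of C10 in blue, and a bar at the mean. The dotted line marks loci with no peak. C13 libraries stand below C10 libraries in the upper panels and above them in the lower panels, with no overlap. The loci shown were picked for passing the test, which favours such separation.

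In the other direction stood loci of lymphoid, dendritic and phagocyte genes. Of 27 lymphoid loci, 8 were higher in C13 (29.6%, against 4.43% of all loci) and none lower, and 21 of 27 differences were positive (77.8%, against 54.1% of all). Among those with a peak in both populations 6 of 26 were higher (23.1%, against 2.98%), without Cd8a and Cd3e. Pax5, the factor of B cell commitment, had 9.90 and 11.5 kb in C13, against 4.51 and 4.39 kb in C10 (1.23 ± 0.10 SE, adjusted p = 0.0192), and it was also called in HOMER (1.13, adjusted p = 0.0486). Ebf1, which acts before Pax5 in B cells, had 21.7 and 19.6 kb in C13, against 14.3 and 12.5 kb in C10 (0.62 ± 0.10, adjusted p = 0.0401), and lost the call in 6 of 11 other settings. Ccr9 had 4.39 and 3.77 kb in C13, against 1.39 and 1.45 kb in C10 (1.40 ± 0.13, adjusted p = 0.0195). Vpreb3 had 6.68 and 6.18 kb in C13, against 2.65 and 3.24 kb in C10. In the HOMER lists the differences of Ccr9 and Vpreb3 were 0.21 and 0.11 and did not pass. Among T cell genes Cd3e had 1.20 and 1.37 kb in C13, against 0.439 and 0.456 kb in C10, and Cd8a had 1.79 and 1.58 kb in C13 and no F-Seq peak in C10. Ccr7 (0.76) and Lck (0.70) were also called. Il7r, Rag1 and Dntt did not pass, with differences of 0.15, -0.19 and 0.24, so that the called genes were a minority of the list.

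Of 20 dendritic loci, 4 were higher in C13 (20%, against 4.43% of all) and none lower, and 19 of 20 differences were positive. Among loci with a peak in both populations 3 of the 20 were higher (15%, against 2.98% of all such loci), without Cx3cr1. Irf8 (chr8:120736358-120756694) had the largest difference of them, at 13.3 and 16.7 kb in C13, against 2.66 and 5.12 kb in C10 (1.96 ± 0.33 SE, limma adjusted p = 0.0432). Its start region ranked 31670 and 23423 in C13, against 37456 and 49846 in C10 (0.67 ± 0.25, adjusted p = 0.0401). The Irf8 call was lost in 6 of 11 other ways of processing, with adjusted p up to 0.661 in the HOMER lists, where the difference was 0.17. Spib had 5.71 and 5.79 kb in C13, against 2.92 and 2.67 kb in C10 (0.99 ± 0.10, adjusted p = 0.0201). A region at -2.15 kb from the Spib start ranked 5257 and 2543 in C13, against 25502 and 26630 in C10 (2.83 ± 0.32, adjusted p = 7.2e-07). Ly6d, a surface protein of early lymphoid and plasmacytoid cells, had 3.82 and 4.02 kb in C13, against 2.39 and 2.42 kb in C10. The HOMER differences of Spib (0.01) and Ly6d (0.03) did not pass. Cx3cr1, the fractalkine receptor, had 6.44 and 6.70 kb in C13, against 4.75 and 4.79 kb in C10. Its call (0.45, adjusted p = 0.0481) was lost in 7 of 11 other settings, the replicate block among them (adjusted p = 0.0612). Its sign turned in 1 more, the HOMER lists (-0.15).

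Of 27 granulocyte and monocyte loci, 4 were higher in C13 (14.8%, against 4.43% of all) and 1 was lower (3.70%, against 4.66%). Cybb had 7.63 and 7.75 kb in C13, against 1.78 and 2.95 kb in C10 (1.66 ± 0.25 SE, adjusted p = 0.0338), and all 3 of its shared regions ranked higher in C13, with 4 further regions listed in C13 only. Itgam, the alpha chain of the phagocyte integrin CD11b, had 8.19 and 8.56 kb in C13, against 3.42 and 4.81 kb in C10 (1.01 ± 0.18, adjusted p = 0.0464), and lost the call in 6 of 11 other settings. Ltf (lactoferrin, 0.94) and F13a1 (a coagulation factor subunit, 0.81) were the other loci higher in C13. Ms4a3, a gene of granulocyte and monocyte progenitors that neighbours Ms4a2 and shares peaks with it, was the single locus lower, at 0.580 and 0.517 kb in C13, against 3.06 and 3.91 kb in C10 (-2.29 ± 0.18, adjusted p = 0.0184). The genes of primary granules did not pass: Elane had a difference of 0.38 and Mpo of -0.52. Of 18 macrophage loci 3 were higher (16.7%) and none lower, C1qa and C1qc, whose loci overlap and share peaks, and Marco, a scavenger receptor gene with 7.62 and 7.66 kb in C13, against 5.20 and 5.23 kb in C10. A Marco region at chr1:120500964-120502165 ranked 3086 and 2826 in C13, against 52176 and 42266 in C10.

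For these lists length and the second caller diverged. The F-Seq medians were 0.42 (lymphoid), 0.42 (dendritic), 0.21 (granulocyte and monocyte) and 0.26 (macrophage), whereas the HOMER medians were 0.01, -0.04, -0.04 and 0.20, against -0.01 over all loci. Positive medians of the lymphoid, dendritic and granulocyte lists were thus present in F-Seq and absent from HOMER, while the negative medians of the erythroid, megakaryocyte and mast cell lists were present in both. Within the F-Seq lists, rank pointed the same way as length, but both come from the same peaks and are not independent. Of 123 shared lymphoid regions 39 ranked higher (31.7%) and 16 lower (13.01%) in C13, against 20.3% and 18.2% of all shared regions. Of 109 dendritic regions 38 ranked higher (34.9%) and 11 lower (10.1%). Of 82 granulocyte and monocyte regions 27 ranked higher (32.9%) and 7 lower (8.54%). Of 54 macrophage regions 15 ranked higher (27.8%) and 7 lower (12.96%).

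**Figure D4:**
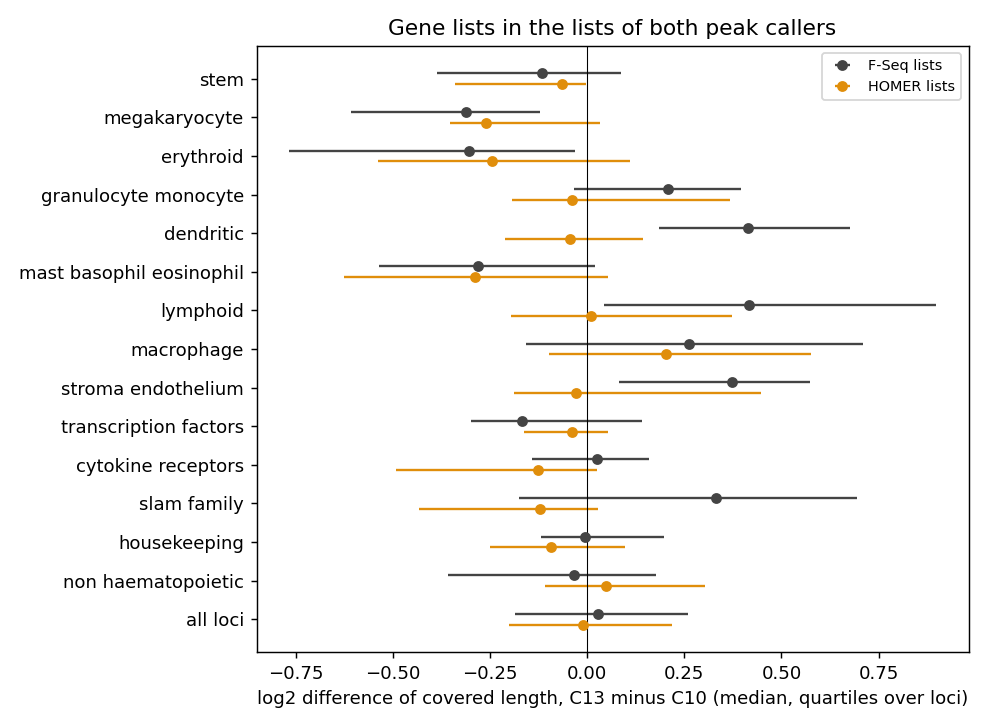
Median and quartiles over loci of the log2 difference of covered length (C13 minus C10) for 14 gene lists and all loci, in the F-Seq lists (grey) and the HOMER lists (orange). The erythroid, megakaryocyte and mast cell medians lie below 0 in both callers, and the dendritic median is 0.42 in F-Seq and -0.04 in HOMER.

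Genes of cells that the gate should not hold were measured beside these. Of 18 stroma and endothelium loci 2 were higher (Cdh5, Foxc1) and 2 lower (Tek, Emcn) in C13, with medians of 0.37 in F-Seq and -0.03 in HOMER. In this list 14 differences were positive (77.8%, as in the lymphoid list, against 54.1% of all) and 4 negative. Of its regions 13.7% were C13-only and 5.98% C10-only, against 10.2% and 9.13% of all. Tek, which stem cells express as well, had 0.579 and 0.648 kb in C13, against 4.05 and 5.12 kb in C10 (-2.55 ± 0.17 SE, adjusted p = 0.0163), and passed in HOMER too (-2.14, adjusted p = 0.0486). Of 20 tested non-haematopoietic loci 1 was higher (Acta1) and 1 lower (Krt14), with medians of -0.03 and 0.05, and of 20 housekeeping loci 1 was higher (Psmb2) and none lower, with medians of 0.00 and -0.09. The non-haematopoietic and housekeeping counts are near the shares over all loci, whereas the stroma and endothelium list had 11.1% called in each direction, against 4.43% and 4.66%. The erythroid, mast cell, lymphoid and macrophage lists also mark mature or committed cells that could be present in a sort, and the part of such cells in the results was not tested.

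Of 29 transcription factor loci 1 was higher in C13 (Irf8, 3.45% of the list, against 4.43% of all loci). In this list 3 were lower (10.3%, against 4.66% of all loci), Gata1 and Gata2 among them. Gata1 had 0.773 and 0.751 kb in C13, against 1.86 and 2.55 kb in C10 (-1.31 ± 0.20 SE, adjusted p = 0.0346), and its regions at the start and at -3.50 kb from it were listed in C10 only, the second at ranks 25756 and 43161. Gata2 had 5.96 and 6.45 kb in C13, against 10.2 and 12.3 kb in C10 (-0.84 ± 0.12, adjusted p = 0.0318). Of its 5 shared regions 3 ranked lower in C13, and 2 regions were listed in C10 only. The Gata2 call was lost in 5 of 11 other settings, and its sign turned in 1 more, the HOMER lists (0.24). Spi1, Klf1 and Cebpa did not pass, at 0.18, -0.26 and 0.03. Over this list 29 of 493 regions were C13-only (5.88%, against 10.2% of all) and 71 C10-only (14.4%, against 9.13%). Of its 246 shared regions 50 ranked higher (20.3%) and 48 lower (19.5%), near the 20.3% and 18.2% of all shared regions.

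Of 20 cytokine receptor loci, 2 were lower in C13 (10%, against 4.66% of all loci), Il5ra among them, and none was higher (against 4.43%). The median was 0.03 in F-Seq and -0.13 in HOMER. The ranks of shared regions in this list went the other way, with 36 of 91 higher (39.6%, against 20.3% of all) and 10 lower (10.99%, against 18.2%) in C13. Flt3, the receptor of dendritic and lymphoid progenitors, which was picked after its values were seen, contributed 7 of the higher and 1 of the lower among its 11 shared regions. Its start region (chr5:147398029-147401731) ranked 810 and 680 in C13, against 4381 and 2896 in C10 (2.26 ± 0.38 SE, limma adjusted p = 6.69e-05). By length Flt3 had 18.2 and 22.2 kb in C13, against 12.9 and 14.99 kb in C10, and did not pass (0.52, adjusted p = 0.087), and its HOMER difference was -0.58. Csf3r had 3 of 5 and Csf1r 2 of 4 shared regions ranked higher in C13 and none lower. In the SLAM family Slamf7 was higher in C13 (0.69 ± 0.09, adjusted p = 0.0257) and Slamf1 lower, of 9 loci. Each is 11.1% of the list, against 4.43% higher and 4.66% lower of all loci, and both calls were lost in 6 of 11 other settings.

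Over the whole genome, 13307 of 130927 merged regions were C13-only (10.2%) and 11950 were C10-only (9.13%), where a region counts for a population when both of its libraries list it and neither library of the other does. Without C10 replicate 2 the C10-only count was 20456. The sets differed in strength. No C13-only region was among the top 10000 peaks of both C13 libraries, against 151 C10-only regions among those of both C10 libraries, and 1156 C13-only regions (8.69%) and 2488 C10-only regions (20.8%) were in the top 50000. The highest C13-only region lay in Chrm3, at ranks 12887 and 12285. The highest C10-only regions lay at Cd226 (659 and 684), in no locus, in Uhrf1bp1l (1247 and 921) and in Schip1 (1164 and 1298), and those in Rab27b and Gypc were also among the top 10; these were chosen after their ranks were seen. C13-only regions had a median width of 627 bases and C10-only regions of 783, and 2.45% and 2.41% lay within 1 kb of a gene start, against 16.6% of regions shared by all 4 libraries (chromosome 18, which has no start in the table used, left out). HOMER listed a peak in both own libraries for 87.0% of C13-only and 85.0% of C10-only regions, and in at least 1 library of the other population for 42.2% of C13-only and 35.1% of C10-only regions.

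**Figure D5:**
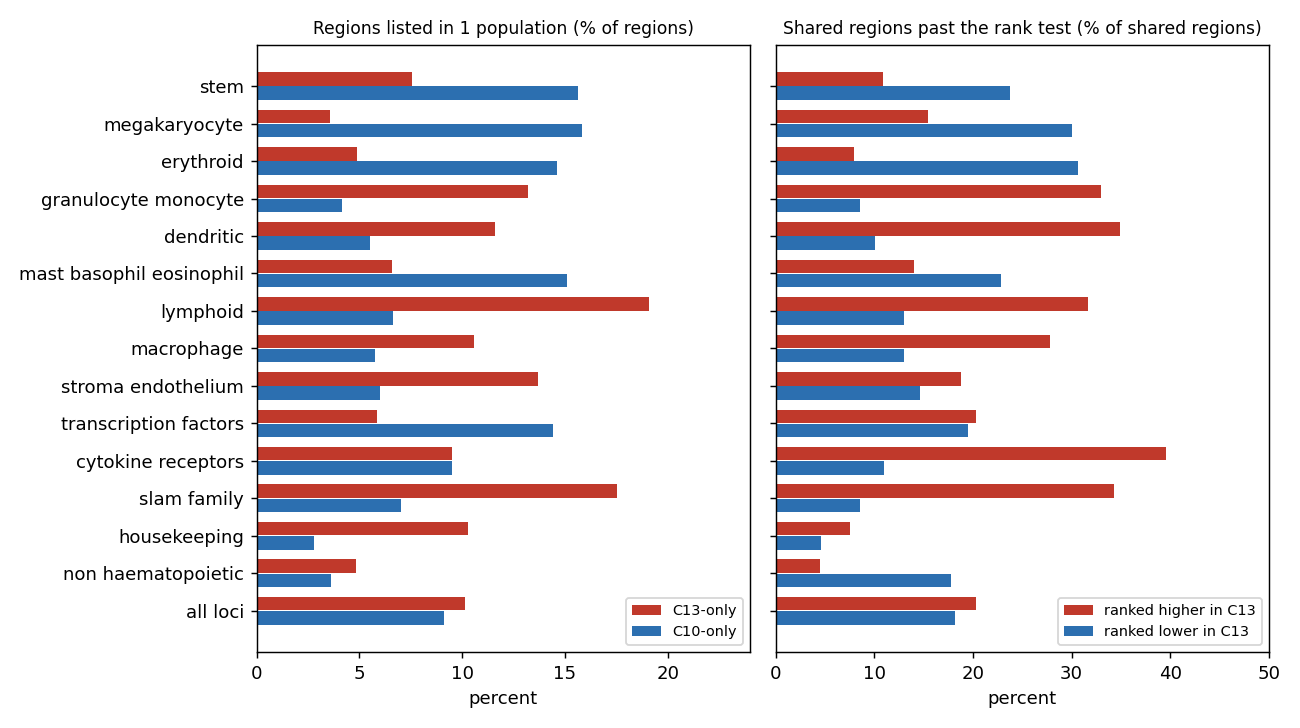
Share of merged regions that were C13-only (red) or C10-only (blue), left, and share of shared regions ranked higher (red) or lower (blue) in C13, right, for the loci of each list and for all regions (last row), in percent. The erythroid list has 4.86% C13-only and 14.6% C10-only regions, and the lymphoid list has 19.1% and 6.64%.

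The shared regions named next were picked for the smallest p-values in the rank test, which favours large differences. Highest in C13 was a region in Rnf122, a RING finger gene, at ranks 182 and 140 in C13, against 10222 and 9029 in C10 (5.91 ± 0.39 SE, limma adjusted p = 9.58e-10). Others were at Casp2 and Clcn1 (710 and 692 in C13, against 29250 and 17322 in C10), S1pr1, the receptor that guides lymphocytes out of tissues (2185 and 1975 in C13, against 34402 and 35105 in C10), Cep170, Itpr1, Bst1, Arhgap17 and Marco. Lowest in C13 was a region in Pcdh7, a protocadherin gene, at ranks 54283 and 63775 in C13, against 388 and 413 in C10 (-7.20 ± 0.31, adjusted p = 1.32e-11). Regions in Plscr2, Tenm4, Gulp1, Rbfox1 and at Galnt5 and Ermn followed, with differences from -5.28 to -6.91, together with the Rhag region above. In C13 all 10 of these ranked 37973 or further down, and in C10 all ranked 2323 or better.

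Loci with many private regions were long genes. The most C13-only regions were in Nav2 (17), Arid1b (14), Hivep3 (13), Foxp1 (13), Pde4d (12), Pakap (11), Hdac9 (11) and Lpp (11), of 39 to 98 regions each. The covered length of Pakap was higher in C13 (0.51 ± 0.06 SE, adjusted p = 0.027), and that of the other 7 did not pass. Among the loci with the most C10-only regions were Rbfox1 (17), Auts2 (14), Sox5 (14), St6galnac3 (13), Cdkal1 (13), Celf2 (12) and Pde4d (12). Of these Rbfox1 fell by 1.47 on the log2 scale in C13 (adjusted p = 0.0188), and Auts2, Cdkal1 and Celf2 were also lower in C13. The Celf2 call was lost in 7 of 11 other settings. Pde4d, a phosphodiesterase gene, had 12 private regions in each population and a difference of -0.03.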

How the data were processed

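ATAC-seq peak lists of 2 C13 and 2 C10 libraries, grouped by sample title, were compared; the other 4 libraries entered 1 alternative fit. Reads were aligned to mm10, and Bowtie 1.0.0 and HOMER 1.0 are named, per the submitters' processing notes; for F-Seq no version is given there. The authors deposited per-library F-Seq lists with peak height as a signal in density units of that library, and HOMER lists with unlabelled score columns; both values served only to rank peaks within a list, and the deposited summit distance was not used.

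Loci were 21883 protein-coding RefSeq genes with 10 kb flanks; 18027 with peaks in at least 2 of the 4 libraries were tested. Covered bases were scaled (factors 0.973 to 1.04), 200 bases added, and log2 values fitted with limma 3.58.1 in R 4.3.3 (eBayes with trend, 2 group means, Benjamini-Hochberg adjustment). Merged regions joined peaks that overlap by at least 1 base; ranks were fitted in the same way. An exact permutation test of 2 against 2 libraries cannot go below p = 0.333, so none is given. Values are given per library, with n = 2 a group; errors of differences are SE.

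Members and the 15 gene lists were chosen with earlier results of these data known, and no list was tested as a set. Genes were named by rule: the 7 sorted markers, the 10 called loci a direction with the smallest p, up to 6 called members a list, 10 regions a direction by the rank test, 8 loci with the most private regions each, and listed genes with a promoter open in 1 population. Named outside it, after their values were seen, were Itga2b's promoter, Flt3, Csf3r, Csf1r, the strongest private regions, the remaining called list members and the members given as not passing. Of the listed genes, Ahsp was not matched in the annotation, and Camp, Mcpt8, Epx, Ins1, Krt5, Ttr and Umod did not pass the peak filter. Alternatives are given in the closing section. A few loci that the rule selects are not reported here by name; they stay in the counts.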

Additional observations from a re-analysis of the deposited data

How the results depend on the processing

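The number of called loci depended on the setting more than their direction did. Against 799 higher and 840 lower in C13, there were 260 and 273 without the peak filter, 50 and 34 in the HOMER lists, 79 and 151 when all 8 libraries were fitted, 1317 higher when peaks were counted in place of bases, and 0 and 0 with any 1 library left out (smallest adjusted p from 0.0534). Loci with a peak in both populations, a setting added after seeing the data, gave 526 and 574. The other settings gave counts within 1.5 times, but similar counts were not always the same loci. Of the 1639 called loci, 1027 were still called with 2 kb flanks, 729 by number of peaks and 495 among the strongest 50000 peaks. In the settings with fewer calls, 529 were kept without the peak filter, 229 with all 8 libraries and 55 in the HOMER lists. Regions ranked in C13 numbered 23983 higher and 19083 lower with absent peaks placed after the last rank, and leaving out a library gave 9783 to 14641 higher and 6638 to 14103 lower. C13-only and C10-only regions numbered 8377 and 7624 among the strongest 50000 peaks and 7692 and 7756 where absence from HOMER was required too; HOMER lists gave 26836 C13-only regions. Leaving out a library gave 13716 to 20456 C10-only regions, 357 to 510 C13-only promoters and 264 to 374 C10-only promoters; requiring absence from HOMER left 165 and 121. Half-overlap and 200-base merging were not run for promoters. The causes were not tested. The replicate block gave 996 and 1011 loci and 15717 and 15376 regions; of the 1639 called loci 1460 were still called, and 179 lost the call, Cx3cr1 (adjusted p = 0.0612) and C1qa (0.0516) among the named; same-numbered libraries deviated together with r = 0.132 over loci and 0.278 over regions (across features, which are not independent), but with 2 pairs and no label that ties the numbers to an animal or batch the pairing is not established.

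Among named loci, signs turned (log2, C13 minus C10) in the HOMER lists for Fcgr2b (0.0109), Cd34 (0.00621), Cd48 (0.0283), Prdm16 (0.020004), Gp6 (0.310), Gp9 (0.0704), Trim10 (0.309), Gata2 (0.236), Krt14 (0.0411), Cx3cr1 (-0.148), Cdh5 (-0.111), Foxp1 (-0.135) and Hdac9 (-0.0524). Counting peaks turned Kit (-0.265), Fcgr2b (0.181), Cd34 (0.0781), Rhag (0.0114), Foxc1 (-0.181) and Hdac9 (-0.0174). The strongest 50000 peaks turned Fcgr2b (0.0397) and Cd48 (0.453), HOMER-supported peaks turned Fcgr3 (0.00966) and Hdac9 (-0.0220), and no scaling turned Pde4d (0.00923). With 1 library left out, Kit ranged from -0.183 to 0.576, Fcgr2b from -0.200 to 0.0369, Pde4d from -0.143 to 0.0904 and Hdac9 from -0.00579 to 0.00948. Tek, Treml1, Ndst3 and Olfr769 passed in each of the 11 planned settings that keep all 4 libraries, and Ifna14 in the 10 of them that gave it a value. The unknown depth limits every absence of a peak.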

Other observations

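The regions private to C13 and C10 were also looked up in the F-Seq lists of the libraries that the comparison did not use, as values only. C13-only regions were listed in 10.8% and 12.5% of cases in the C2 libraries (CD34bright CD41+ CD9+) and in 7.83% and 7.75% in the C18 libraries (CD34dim CD41+ CD9+ CD48dim). C10-only regions were listed in 50.9% and 59.7% of cases in the C2 libraries and in 42.7% and 49.8% in the C18 libraries. Each of these 4 libraries listed a larger share of the C10-only regions than of the C13-only regions. All 4 were sorted as CD41+ CD9+, as C10 was. The sets also differ in strength. Median ranks were 74786 and 73108 for C13-only regions in C13, and 65122.5 and 68591.5 for C10-only regions in C10. What lies behind the difference in shares was not tested. Over all 130927 merged regions the shares were 57.3% and 62.7% in C2 and 48.3% and 48.4% in C18. Among shared regions, those ranked higher in C13 were listed in 74.3% and 81.1% of cases in C2 and 51.9% and 48.3% in C18, and those ranked lower in C13 in 94.8% and 97.5% in C2 and 86.7% and 86.3% in C18.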
